A study of Mus musculus with 4 samples.

Results

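Neuronal A-type potassium channels of the Kv4 family are assemblies of 3 kinds of protein, and the 8 genes described here, read in the mouse cortex, encode subunits of these kinds. Kcnd2 (Kv4.2) and Kcnd3 (Kv4.3) encode the pore-forming subunits, Kcnip1, Kcnip2, Kcnip3 and Kcnip4 encode the KChIP calcium-binding subunits, and Dpp6 and Dpp10 encode the DPP transmembrane subunits. The genes were taken by symbol from the single-nucleus count matrices, and all 8 were found among the 32285 genes listed.

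Kv4 channels open at potentials below the firing threshold and inactivate quickly, which slows the approach to a spike and limits the spread of back-propagating action potentials into dendrites. KChIPs bind the intracellular N-terminus of the pore subunit through EF hands, raise its number at the cell surface and change its inactivation. DPP6 and DPP10 belong to the dipeptidyl peptidase family but lack enzyme activity, and they speed the opening and inactivation of the channel and its recovery.

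The study asked how risperidone given in adolescence, an antipsychotic that blocks dopamine D2 and serotonin 5-HT2A receptors, affects the adult cortex. C57BL/6J wild-type mice received 4 mg/kg risperidone by intraperitoneal injection for 21 days starting at postnatal day 22, and controls received saline on the same schedule. By the study's methods risperidone came from a stock in dimethyl sulfoxide diluted into saline, and only saline is named for controls. The sample labels give a washout of 43 days, and the study's methods one that lasted until postnatal day 90, when the cortex was collected. Frozen hemispheres of 5 male and 5 female mice of each condition were combined into 1 pool. DAPI-sorted nuclei of each pool were run on 2 lanes of the 10x Genomics droplet system, which counts unique molecular identifiers (UMIs) per gene and nucleus. Each condition was therefore 1 sample with technical runs, and the design allows no test between them. The differences below compare 2 pools, and mice, vehicle or handling of the pools cannot be told apart from the drug.

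The lanes held 119736937 and 147909049 UMIs for saline and 168537139 and 203675013 for risperidone. The smallest nucleus listed for saline had 1364 and 1630 UMIs, and that of each risperidone lane had 500. Between 160 and 221 cell barcodes were shared by any pair of lanes. After removal of doublet-like nuclei 96553 nuclei were used, and 20 types were named "-like" from marker genes. PV-like nuclei held Pvalb at 36.6 CPM (UMI counts relative to all UMIs of the type) against at most 3.98 in another type, and Sst-like nuclei held Sst at 60.5 CPM against at most 6.12. Rprm was at 2.10 CPM in L6 CT-like nuclei against up to 2.47 elsewhere, so that name rests on Foxp2, Syt6 and Hs3st4. The IT names are weaker. Each L2/3 IT marker was above the median of the other types in L2/3 IT-like nuclei but higher in at least 1 other type, as with Cux2 at 555 CPM against a median of 185 and a highest value of 795. The L5/6 IT marker Sulf1 was at 9.27 CPM in L5/6 IT-like nuclei, under the median of 30.3 elsewhere, and that name rests on Il1rapl2, Deptor and Etv1. Of these Etv1 was at 107 CPM against a median of 38.1 and a highest value of 244 in another type. Oligodendrocyte markers stood in the glutamatergic nuclei at a median 31.5% and 28.4% of their whole-lane level for saline, and 12.3% and 13.3% for risperidone. The mean of the lanes was 34.7% against 17.0% in PV-like and 35.5% against 20.3% in Sst-like nuclei. Taken as RNA of other cells, this share was higher in the saline lanes, and it is given below beside the differences it touches most.

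The pore-forming genes are paralogs that differed unequally between the conditions, and their promoters are shown for this reason. Kcnd2 spans 514 kb of chromosome 6 (chr6:21215503-21729805, plus strand, GRCm38) and Kcnd3 spans 222 kb of chromosome 3 (chr3:105452330-105674002, plus strand). The 250 bases before the RefSeq start (GRCm38.p6) are at chr6:21215096-21215345 for Kcnd2 and chr3:105451640-105451889 for Kcnd3, and capitals mark the CpG dinucleotides.
Kcnd2: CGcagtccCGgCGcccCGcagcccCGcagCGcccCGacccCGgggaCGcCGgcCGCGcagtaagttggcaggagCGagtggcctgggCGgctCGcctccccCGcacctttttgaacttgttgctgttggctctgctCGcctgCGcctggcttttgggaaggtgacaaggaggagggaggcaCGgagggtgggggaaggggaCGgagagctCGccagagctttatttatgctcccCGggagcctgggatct
Kcnd3: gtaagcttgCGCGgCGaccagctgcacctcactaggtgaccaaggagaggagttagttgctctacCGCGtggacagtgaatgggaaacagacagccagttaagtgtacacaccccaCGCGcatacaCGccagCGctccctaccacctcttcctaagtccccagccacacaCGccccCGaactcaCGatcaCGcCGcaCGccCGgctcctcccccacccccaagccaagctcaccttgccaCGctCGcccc
The Kcnd2 window held 22 CpGs and the Kcnd3 window 18. As many or more were present in 14.8% and 21.7% of the 32851 RefSeq windows of this length, whose median was 6. On either strand TATAAA was in neither sequence, and 12.4% of all windows held it. GGGCGG occurred once in Kcnd2 and not in Kcnd3, against 32.7% of all windows. GTCA, the core letters bound by KChIP3 in its role as the transcriptional repressor DREAM, occurred once in each, against 80.2% of all windows. These letters describe the sequence only.

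The other members range from short to very long genes. Kcnip1 (chr11:33629339-33993152, minus strand), Kcnip2 (chr19:45791839-45816061, minus), Kcnip3 (chr2:127456498-127522094, minus) and Kcnip4 (chr5:48389502-49524907, minus) span 364, 24.2, 65.6 and 1135 kb. Dpp6 (chr5:26817203-27727505, plus) and Dpp10 (chr1:123321471-124045559, minus) span 910 and 724 kb. Because intronic reads were counted, levels were compared between genes per kilobase of gene span. On that scale, over all nuclei, Dpp10 at 13.02 and Kcnip4 at 10.5 CPM per kb were above Kcnd2 at 4.90, Kcnip3 at 3.30, Kcnd3 at 2.05 and Kcnip2 at 1.94. Dpp6 was at 1.12 and Kcnip1 at 0.376 CPM per kb.

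**Figure D1:**
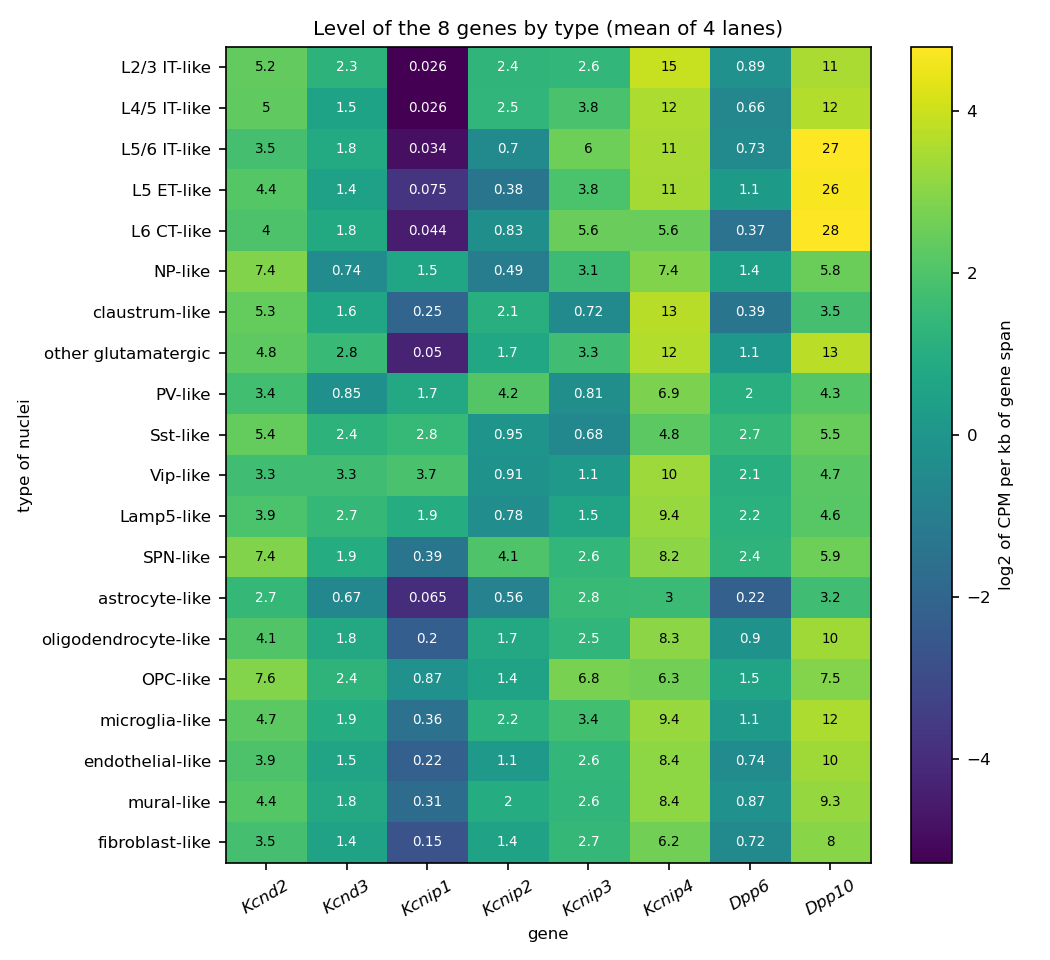
Level of the 8 genes (columns) in 20 types of nuclei (rows) as CPM per kilobase of gene span, mean of 4 lanes, with the colour on a log2 scale. Dpp10 and Kcnip4 hold the highest values in most rows, and Kcnip1 the lowest in the intratelencephalic (IT) layer types.

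Kcnd2, the subunit known for the somatodendritic A-type current of pyramidal cells, varied 2.81-fold between types. Its highest mean levels over the 4 lanes were 3895 CPM in oligodendrocyte precursor (OPC)-like, 3814 in striatal projection neuron (SPN)-like and 3781 in near-projecting (NP)-like nuclei, and the lanes of these overlapped. The SPN-like nuclei are a mixed cluster, 4735 nuclei against 2650 named so at the finer clustering, and their levels here and below are not read as those of a single cell type. Sst-like nuclei followed at 2752 CPM, PV-like and Vip-like were low at 1741 and 1677, and astrocyte-like nuclei were lowest at 1386. In 18 of the 19 neighbouring pairs of this order the lanes overlapped, so only broad steps can be read from it.

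Kcnd3, the pore subunit known from many interneurons, was highest in Vip-like nuclei at 720 CPM and next highest in other glutamatergic nuclei at 628, followed by Lamp5-like at 601, OPC-like at 539, Sst-like at 523 and L2/3 IT-like nuclei at 516. PV-like nuclei at 188 CPM and NP-like nuclei at 163 were near the lowest, astrocyte-like, at 148. All 19 neighbouring pairs overlapped. Per kilobase of span Kcnd2 made up 45.6% of the Kv4 level in saline Vip-like nuclei but 75.4% in saline PV-like nuclei. The Kv4 level here and below is the sum of Kcnd2 and Kcnd3 only, without other Kv4 pore genes. The interneuron types thus differed in the balance of the pore genes.

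Kcnip1 spanned the widest range of the 8 genes, 146-fold from the highest to the lowest type. It stood at 1358 CPM in Vip-like, 1018 in Sst-like, 699 in Lamp5-like and 636 in PV-like nuclei, and among glutamatergic types it reached such a level only in NP-like nuclei, at 563. L2/3 IT-like and L4/5 IT-like nuclei held 9.47 and 9.32 CPM. The Vip-like lanes were above the Sst-like lanes, while those of Lamp5-like, PV-like and NP-like overlapped in turn. After thinning each nucleus to 2000 UMIs, Kcnip1 was detected in 75.4% of saline Sst-like nuclei (exact binomial interval 72.9 to 77.7) at a median depth of 4005 UMIs before thinning. In saline microglia-like nuclei, which should lack it, the share was 15.5% (12.5 to 19.0) at a median of 3400 UMIs.

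Kcnip2, the KChIP also known from heart muscle, was highest in PV-like at 103 CPM and SPN-like nuclei at 99.2, whose lanes overlapped, followed by L4/5 IT-like at 60.9. It was lowest in L5 extratelencephalic (ET)-like nuclei at 9.30 CPM, under the 10 CPM required below. Kcnip3 showed another order. OPC-like at 448, L5/6 IT-like at 391 and L6 corticothalamic (CT)-like nuclei at 367 CPM overlapped at the top, and Sst-like at 44.3, claustrum-like at 47.0 and PV-like at 53.2 were at the bottom. In these lowest types other cells would supply 162%, 106% and 140% of the saline level by the estimate.

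Kcnip4, whose KChIP4a isoform slows inactivation, was highest in L2/3 IT-like nuclei at 17470 CPM, with every lane above those of the claustrum-like nuclei at 15010. Deep-layer L6 CT-like nuclei held 6415 CPM and Sst-like nuclei 5404. Per kilobase Kcnip4 made up 65.6% of the KChIP level of saline glutamatergic nuclei, Kcnip3 23.5%, Kcnip2 10.5% and Kcnip1 0.473%. In saline PV-like nuclei the shares were 48.1% for Kcnip4, 32.1% for Kcnip2, 13.5% for Kcnip1 and 6.27% for Kcnip3. These shares depend on scaling by gene span. In plain UMIs or per kilobase of exons the Kcnip4 shares were higher, with values over both conditions in the closing section. In saline Sst-like nuclei Kcnip1 took 29.6% and 30.4% in the lanes and Kcnip2 11.3% over both. In saline L6 CT-like nuclei 46.4% came from Kcnip3, and other cells would supply 18.5% of Kcnip3 and 52.4% of Kcnip4 there.

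**Figure D2:**
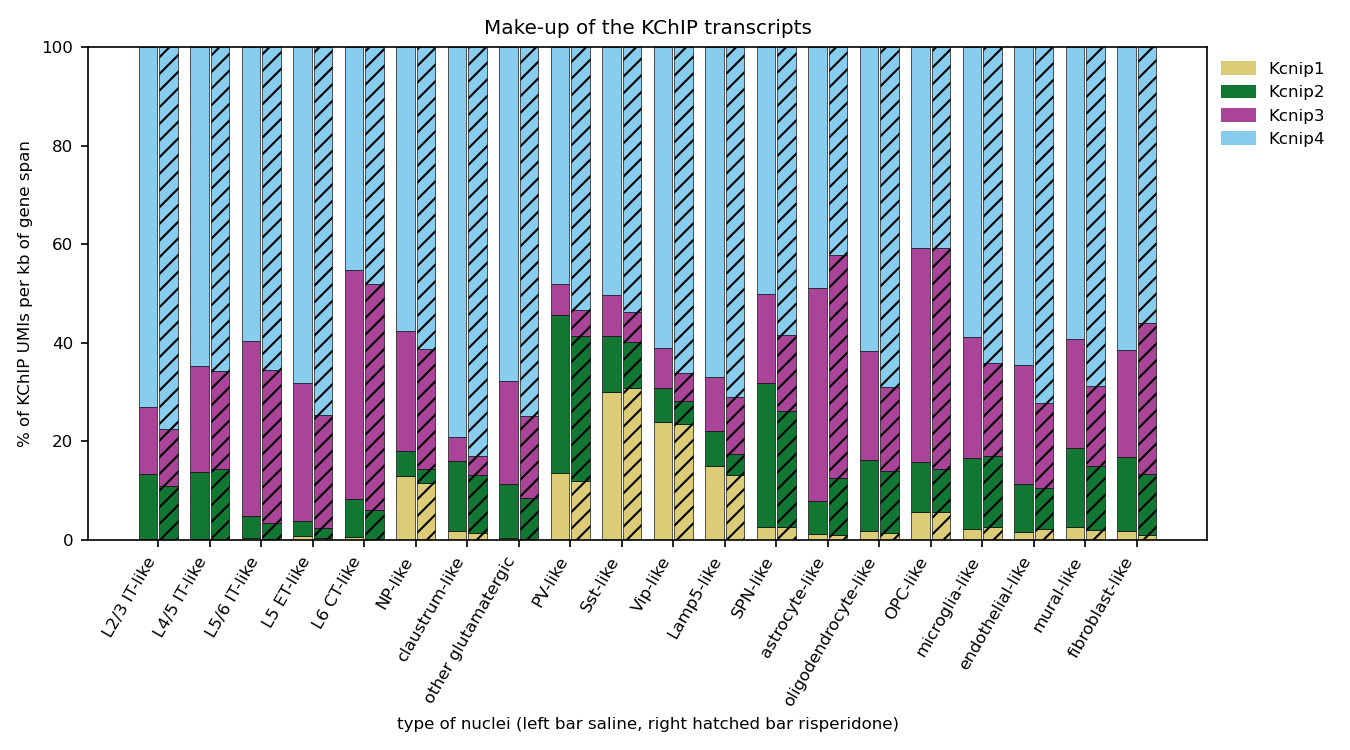
Share of each of the 4 KChIP genes in the summed KChIP level per kilobase of gene span, in percent, for 20 types of nuclei (left bar saline, right hatched bar risperidone). The Kcnip4 share of glutamatergic nuclei as a whole, whose mix of types differed between the pools, went from 65.6% in saline to 71.2% in risperidone. Interneuron types carry larger Kcnip1 shares than the IT types.

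The DPP genes were highest in different types. Dpp6 was highest in Sst-like at 2477, SPN-like at 2177, Lamp5-like at 2023, Vip-like at 1896 and PV-like nuclei at 1850 CPM, and low in L6 CT-like at 334 and claustrum-like nuclei at 356. Dpp10 was highest in L6 CT-like at 20077, L5/6 IT-like at 19756 and L5 ET-like nuclei at 18713 CPM, whose lanes overlapped, and every interneuron type held between 3146 and 3977 CPM. Of the saline Dpp10 level other cells would supply 95.3% in PV-like, 75.9% in Sst-like, 77.1% in Vip-like and 83.4% in Lamp5-like nuclei, so these levels and the DPP shares of interneurons are not the types' own alone. Per kilobase Dpp6 made up 1.55% of the DPP level in saline L6 CT-like nuclei and 31.9% in saline PV-like nuclei.

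Across the 20 types in the saline lanes, which share libraries, depth and free RNA, the members were paired as a description only. Pearson's r of log2(CPM + 1) was 0.72 for Dpp10 with Kcnip3 and 0.71 for Dpp6 with Kcnip1. It was −0.64 for Dpp10 with Kcnip1 and −0.61 for Kcnip1 with Kcnip3. Kcnd2 and Kcnd3 had r = 0.12.

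Among 10629 genes the patterns most like Kcnd2 were Zdhhc15, Rgs17 and Lrrc42 (r = 0.73, 0.72 and 0.70), a looser match than for any other member. Those most like Kcnd3 were Gm43847, Epb41l4b and Mamld1 (0.94, 0.79 and 0.78). For the KChIPs they were Grik1, Alk and Grip1 for Kcnip1 (0.88, 0.87 and 0.86), Wipf3, Gnal and Csrnp2 for Kcnip2 (0.79, 0.75 and 0.74), Ext1, Ramp1 and Mbd4 for Kcnip3 (0.85, 0.83 and 0.81), and Prmt8, Kcnq5 and Sphkap for Kcnip4 (0.91, 0.90 and 0.88). Grik1 encodes a kainate receptor subunit and Kcnq5 a subunit of the M-current. For Dpp6 they were Vstm5, Tiam1 and Ppfia4 (0.90, 0.89 and 0.88), and for Dpp10 Ext1, Khdrbs3 and Galnt9 (0.92, 0.89 and 0.88). In the risperidone lanes the 3 nearest genes included none of these for Kcnd2, Kcnip1 and Kcnip2, 1 for Kcnd3 and Kcnip4, and 2 for Kcnip3, Dpp6 and Dpp10.

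Differences between the pools were read in glutamatergic, PV-like and Sst-like nuclei, the 3 classes the study compared. A gene was called lower or higher where its mean reached 10 CPM, the log2 ratio of risperidone to saline was 0.5 or more in size and no lane of one condition fell within the range of the other. The ratios used CPM scaled between lanes by edgeR's TMM factors, and each has an exact interval for counting error only.

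In glutamatergic nuclei Kcnd3 and Kcnip1 were called lower in risperidone-treated mice, 2 of the 8 genes, and none was called higher. Of all genes measured there 6.96% were called lower and 4.17% higher. The median log2 ratio of the 8 genes was −0.33, against −0.02 for all genes. Kcnd3 was at 593 and 584 CPM with saline and 328 and 338 with risperidone, without overlap of lanes, a log2 ratio of −0.82 (interval −0.84 to −0.81). Kcnd2 was at 2353 and 2445 CPM in saline and 2446 and 2508 in risperidone, with a log2 ratio of 0.05 (0.04 to 0.05). The pore genes therefore differed unequally between the pools.

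Among the KChIPs of glutamatergic nuclei, Kcnip1 was at 33.3 and 29.4 CPM in saline and 14.4 and 14.4 in risperidone (log2 ratio −1.11, −1.18 to −1.04). With each glutamatergic cluster given equal weight the ratio was −0.53. These values were low. From the oligodendrocyte markers, RNA of other cells would supply 151% of the measured Kcnip1 in saline and 103% in risperidone, and in L2/3 IT-like nuclei 350% and 290%. The estimate is thus too high for this gene, and no Kcnip1 value of the glutamatergic nuclei themselves was resolved. The same share was applied to every gene of a type and lane, so it may also be too high for other genes. Ratios with that RNA taken out are therefore not read as the types' own. Kcnip3 was at 277 and 280 CPM in saline and 213 and 214 in risperidone (−0.38), and Kcnip2 at 45.5 and 46.3 against 37.5 and 38.1 (−0.28). Both had lanes apart but stayed inside the limit, and 47.1% of all genes had risperidone lanes wholly below the saline lanes. Kcnip4 overlapped, with 13159 and 13740 CPM in saline and 13419 and 13786 in risperidone (0.01). The mix of glutamatergic types differed between the pools. With equal cluster weights the ratios of Kcnip2, Kcnip3 and Kcnip4 were −0.40, −0.33 and −0.03.

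Of the DPP genes in glutamatergic nuclei, Dpp6 was at 883 and 865 CPM after saline and 611 and 624 after risperidone. The lanes did not overlap, and the log2 ratio of −0.498 fell just inside the limit. It was past the limit under 8 of 14 alternatives, among them DESeq2 size factors (−0.51), nuclei of at least 2000 UMIs (−0.505) and of 4000 to 8000 UMIs (−0.72), and without saline lane 2 or risperidone lane 2 (−0.51 each). It was −0.30 in nuclei called male, −0.42 with plain CPM and −0.34 with RNA of other cells, 40.7% of saline and 17.6% of risperidone Dpp6, taken out. Dpp10 was at 12489 and 12715 CPM in saline and 11123 and 11349 in risperidone, with a log2 ratio of −0.17. Its difference was smaller than that of Dpp6.

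**Figure D3:**
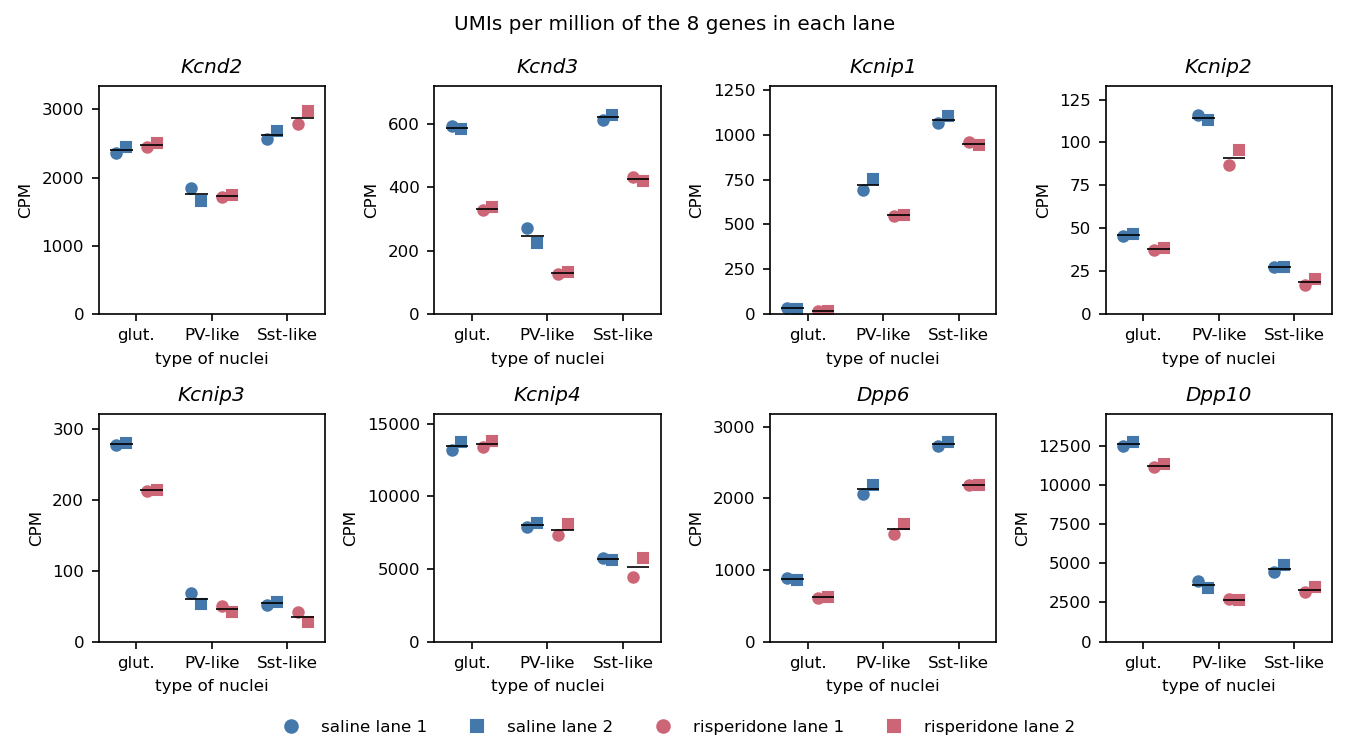
CPM of each of the 8 genes in the saline (blue) and risperidone (red) lanes for glutamatergic, PV-like and Sst-like nuclei, circles for lane 1 and squares for lane 2, with black lines at the means. Kcnd3 lies lower in both risperidone lanes in all 3 classes, whereas the Kcnd2 points stay close together.

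In PV-like nuclei all 8 log2 ratios were below 0, as were those of 52.2% of all genes. With plain CPM those of Kcnd2 and Kcnip4 were above 0, at 0.07 and 0.04. Of the 8 genes 1, Kcnd3, was called lower, against 7.42% of genes called lower and 5.93% higher. The median of the 8 ratios was −0.41, against −0.02 for all genes. Kcnd3 was at 271 and 223 CPM in saline and 127 and 134 in risperidone (log2 ratio −0.91, −1.01 to −0.81). RNA of other cells, by the same estimate, would supply 80.7% of this level in saline and 43.6% in risperidone. With it taken out the log2 ratio was 0.30, so the direction in PV-like nuclei depended on the estimate. Kcnd2 overlapped between the conditions, at 1848 and 1659 CPM against 1713 and 1744.

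The Kcnip1 lanes of PV-like nuclei were at 692 and 752 CPM for saline and 547 and 555 for risperidone (−0.39), and here other cells would supply 7.63% and 3.54%. Kcnip2 was at 116 and 113 CPM against 86.7 and 95.3 (−0.32). Both were lower without overlap, as were 36.7% of all genes, and inside the limit, and Kcnip4 overlapped (7910 and 8144 against 7303 and 8116 CPM), with 51.0% of its saline level from other cells by the estimate. Dpp6 was at 2069 and 2189 CPM in saline and 1502 and 1642 in risperidone (−0.43). Dpp10 was at 3845 and 3410 CPM in saline and 2688 and 2642 in risperidone (−0.44). With other-cell RNA taken out the Dpp6 ratio was −0.60 while that of Dpp10 turned to 2.33, since the estimate covers 95.3% of saline Dpp10. The Kcnip3 ratio of −0.42 could not be given after this step.

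In Sst-like nuclei Kcnd3, Kcnip2 and Kcnip3 were called lower, 3 of 8, against 7.91% of genes called lower and 5.51% higher. The median was −0.42, against −0.03 for all genes. Kcnd3 was at 612 and 630 CPM in saline and 432 and 419 in risperidone (−0.55, −0.62 to −0.48), and −0.53 with other-cell RNA taken out. Kcnip2 was at 27.1 and 27.5 against 17.0 and 20.5 CPM (−0.53, −0.87 to −0.19), on 160 and 135 UMIs. Other cells would supply 68.5% and 44.9% of it. The ratio was −0.032 with that RNA taken out and −0.028 in nuclei called male, so the call did not hold under either choice. Kcnip3 was at 51.5 and 56.3 against 42.0 and 27.5 CPM (−0.67), where other cells would supply more than the measured level in both conditions. This ratio was −0.37 without risperidone lane 2, which ended the call, and −0.98 without risperidone lane 1. With plain CPM in place of TMM scaling, 1 of these 3 was called, Kcnip3 (−0.58), and Kcnd3 was inside the limit at −0.46. The Kcnd3 ratio was also inside the limit in nuclei of 4000 to 8000 UMIs (−0.38) and in nuclei called male (−0.32).

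Dpp10 in Sst-like nuclei was at 4415 and 4900 CPM in saline and 3136 and 3459 in risperidone, just inside the limit at −0.50. Other cells would supply 75.9% and 54.8% of it, and the ratio turned to 0.066 with that RNA taken out. Dpp6 was at 2739 and 2786 against 2194 and 2190 (−0.34) and Kcnip1 at 1068 and 1102 against 957 and 944 (−0.19). All were lower in both risperidone lanes, as were 36.5% of all genes. Kcnd2 was higher in both, at 2565 and 2688 against 2783 and 2973 CPM (0.13). Kcnip4 overlapped, with 1 risperidone lane at 4456 CPM and the other at 5753, and its ratio of −0.14 turned to 0.55 with RNA of other cells, 73.5% of its saline level, taken out.

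By layer, 1 of 7 measured members was called lower in L2/3 IT-like (7.19% of genes) and 1 of 7 in L4/5 IT-like nuclei (6%), Kcnd3 in both. Other cells would supply 26.9% and 45.3% of saline Kcnd3 there. With that RNA taken out the ratios were −0.82 and −0.39, the latter inside the limit. In the deep-layer types the counts were 3 of 8 in L5/6 IT-like (7.73%), 4 of 8 in L6 CT-like (6.88%) and 2 of 7 in L5 ET-like nuclei (10%). Kcnip1 was under 10 CPM in L2/3 IT-like and L4/5 IT-like nuclei and not counted there, with log2 ratios of −1.41 and −1.14. In L5/6 IT-like and L6 CT-like nuclei other cells would supply 228% and 200% of saline Kcnip1 and 67.2% and 63.4% of saline Kcnip2. With that RNA taken out their Kcnip2 ratios were −0.07 and −0.13, Kcnd3 was −0.69 and −0.59, and L6 CT-like Dpp6 turned to 0.66. The counts are therefore not compared between layers. NP-like nuclei had 3 (10.9%), claustrum-like 2 (8.47%) and the other glutamatergic nuclei 4 (8.25%). With RNA of other cells taken out, L5 ET-like Kcnd3 and Kcnip1 were at −0.89 and −0.50. NP-like Kcnd3 and Dpp10 turned to 1.98 and 0.41, and Kcnip2 there had no value. Claustrum-like Kcnd3 and Dpp6 were at −0.62 and −0.29. In the other glutamatergic nuclei Kcnd3, Dpp6 and Kcnip2 were at −1.04, −0.60 and −0.47, and Kcnip1 had no value. Among the other inhibitory types Vip-like nuclei had 3 (7.74%), Lamp5-like 1 (8.32%) and SPN-like 2 (8.79%). After the same step Vip-like Kcnip3 turned to 0.77, and Dpp10 and Kcnip2 there were at −0.27 and −0.48. Lamp5-like Kcnip2 was at −0.53, and SPN-like Kcnip2 and Kcnip3 were at −0.83 and −0.42. Non-neuronal types had 5 in astrocyte-like (11%), 4 in oligodendrocyte-like (8.21%), 1 in OPC-like (7.38%), 3 in microglia-like (10.5%), 2 in endothelial-like (9.55%), 4 in mural-like (10.5%) and 5 in fibroblast-like nuclei (14%). By the estimate from glutamatergic markers, RNA of other cells would supply 57.4% of the saline level of Kcnd3, the member called in OPC-like nuclei. For the members called in the other non-neuronal types it would supply between 71.6% (Kcnip2 in mural-like nuclei) and 189% (Kcnip1 in astrocyte-like nuclei), so these counts are not read as differences of the types themselves. No member was called higher in any of the 20 types, in which 3.94% to 14% of genes were.

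Over the 20 types Kcnd3 was below 0 in all 20 and called lower in 17, with log2 ratios from −1.10 to −0.38 and a median of −0.72. By type, 48.1% to 55.5% of all genes were below 0 and 6% to 14% were called lower. The ratio was −1.10 in NP-like nuclei, where other cells would supply 94.98% of the saline level and the ratio turned to 1.98 without it. Fibroblast-like nuclei gave −1.06, with −1.61 to −0.64 when a lane was left out and 89.8% of the saline level from other cells. The 3 types without a call were Vip-like (−0.38), Lamp5-like (−0.43) and SPN-like nuclei (−0.48). Leaving out 1 lane ended the Kcnd3 call in OPC-like nuclei (−0.47), where the ratio was −0.32 with RNA of other cells taken out. With plain CPM Kcnd3 was at or below −0.5 in 15 types. Oligodendrocyte-like (−0.93), microglia-like (−0.77), endothelial-like (−0.92) and mural-like nuclei (−0.70) showed ratios like the whole lane at −0.80. By the estimate, here from glutamatergic markers, RNA of other cells would supply 92.1% to 112% of their Kcnd3 level, so these ratios cannot be told apart from that of the lane's free RNA. With other-cell RNA taken out, Kcnd3 was below 0 in 15 of the 18 types with a value, and at or below −0.5 in 10. In nuclei called male it was below 0 in 18 of 20 types and at or below −0.5 in 9. In nuclei called female these counts were 20 and 19.

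Kcnd2 was called in no type, with log2 ratios from −0.30 to 0.16 and a median of 0.01. The Kcnd2 share of the Kv4 level per kilobase was higher in both risperidone lanes in every type, a measure that does not depend on scaling between lanes. In glutamatergic nuclei it was 63.1% and 64.3% in saline and 76.3% and 76.2% in risperidone. It went from 75.4% to 85.1% in PV-like, from 64.6% to 74.6% in Sst-like and from 45.6% to 54.9% in Vip-like nuclei. The log2 ratio of Kcnd2 to Kcnd3 differed by 0.87, 0.89 and 0.68 in the 3 main classes. In PV-like nuclei, where other cells would supply 80.7% of saline Kcnd3, it turned to −0.09 with that RNA taken out. The balance turned in the same way in NP-like nuclei, where the log2 ratio of Kcnd2 became −0.045 and that of Kcnd3 1.98, and in microglia-like nuclei, where they became 0.18 and 0.47.

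**Figure D4:**
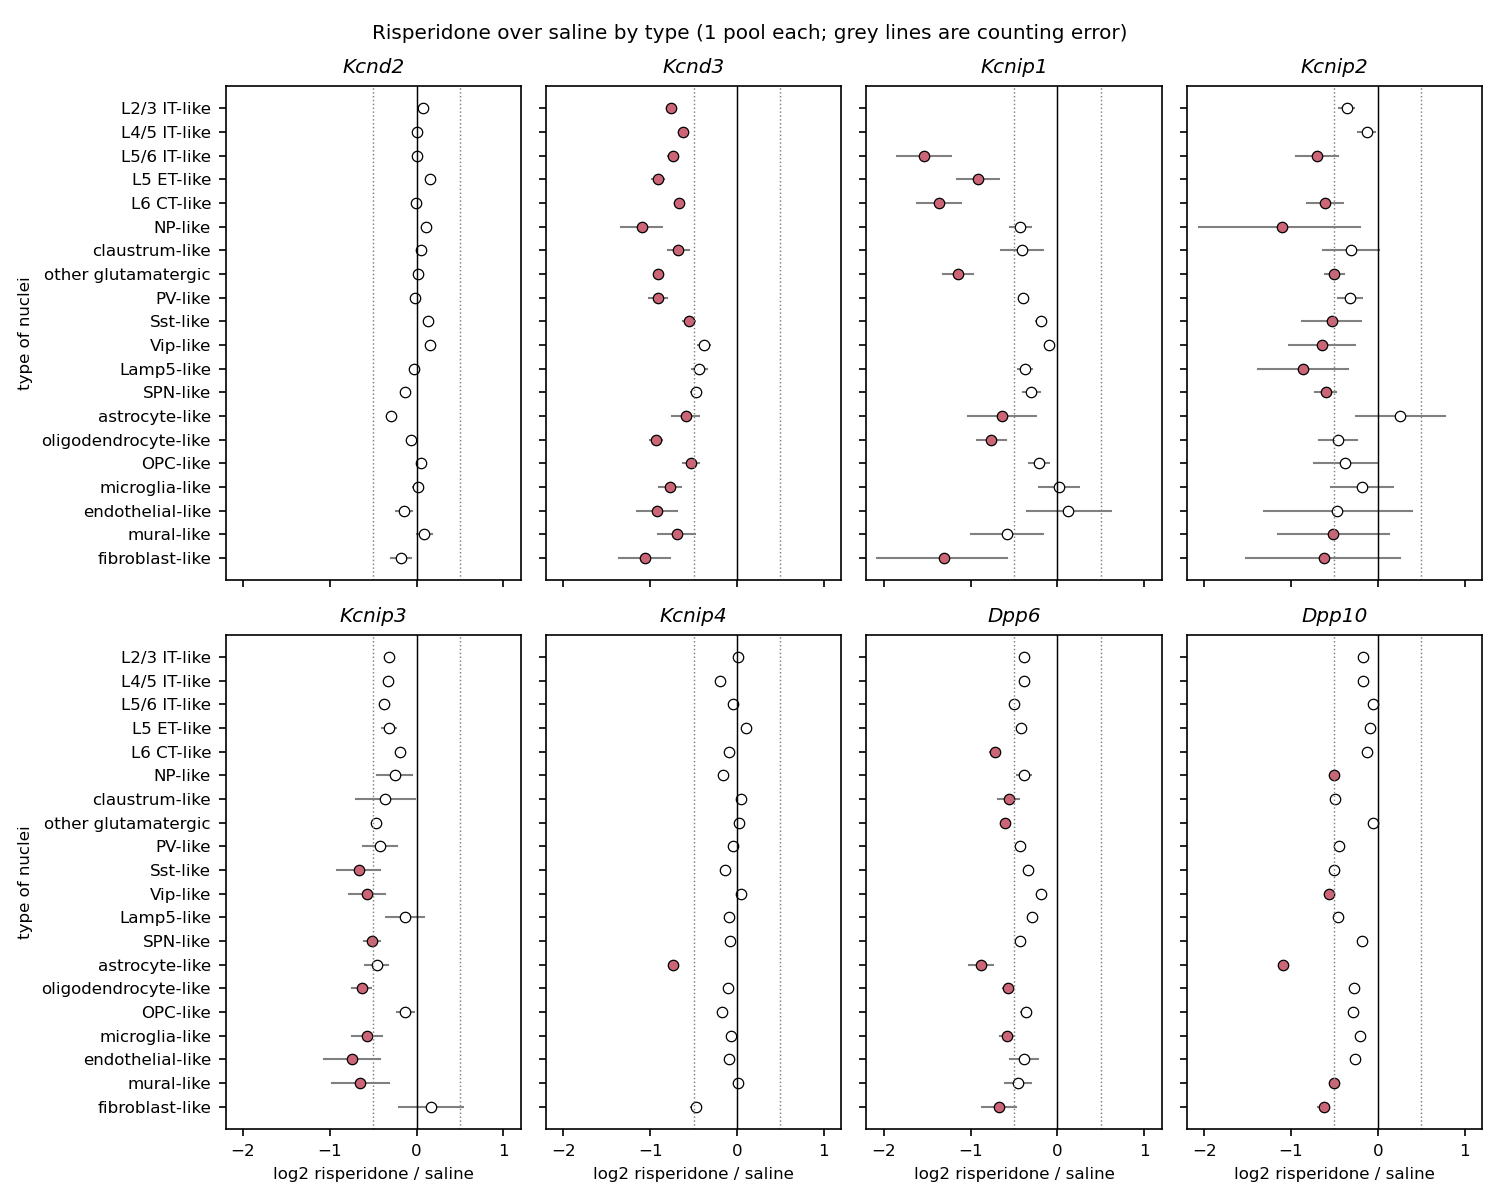
Log2 ratio of risperidone to saline for each gene in 20 types of nuclei, 1 pool per condition; grey lines are 95% intervals for counting error, dotted lines the limit of 0.5, red points calls and white points no call. Kcnd3 lies left of 0 in all 20 types and Kcnd2 stays between −0.30 and 0.16.

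Dpp6 and Dpp10 were each below 0 in all 20 types. Dpp6 was called lower in 7 types, with a median of −0.43, and Dpp10 in 5, with a median of −0.28. By type, 6% to 14% of all genes were called lower. The Dpp6 calls were in L6 CT-like, claustrum-like, other glutamatergic, astrocyte-like, oligodendrocyte-like, microglia-like and fibroblast-like nuclei. The Dpp10 calls were in NP-like, Vip-like, astrocyte-like, mural-like and fibroblast-like nuclei. Those in non-neuronal types are not read as the types' own, as above. Leaving out 1 lane ended the Dpp10 calls in Vip-like (−0.49), NP-like (−0.23), mural-like (−0.27) and fibroblast-like nuclei (−0.41). It also ended the Dpp6 calls in claustrum-like (−0.49) and oligodendrocyte-like nuclei (−0.47). With RNA of other cells taken out Dpp6 was below 0 in 15 of 17 types with a value, and Dpp10 in 9 of 14, with 2 at or below −0.5. These 2 were claustrum-like (−0.60) and microglia-like nuclei (−1.18), where Dpp10 had not been called. In L6 CT-like nuclei Dpp6 had a log2 ratio of −0.72, and other cells would supply 84.0% of its saline level there; with that RNA taken out the ratio was 0.66. The Dpp6 share of the DPP level in glutamatergic nuclei went from 5.22% to 4.19%, in PV-like nuclei it was 31.9% and 32.1% with overlapping lanes, and in Sst-like nuclei it went from 32.0% to 34.5%. With RNA of other cells taken out, log2 Dpp6 over Dpp10 was lower in risperidone in all 3 classes, by −0.09, −2.93 and −0.57, so the direction of this balance in PV-like and Sst-like nuclei depended on the estimate.

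The KChIPs differed by gene. Kcnip2 was below 0 in 18 of 19 measured types and called lower in 10, Kcnip3 below 0 in 19 of 20 and called in 7, and Kcnip1 below 0 in 16 of 18 and called in 7. Between 6% and 14% of all genes were called lower in a type. The Kcnip3 calls were in Sst-like, Vip-like, SPN-like, oligodendrocyte-like, microglia-like, endothelial-like and mural-like nuclei. Leaving out 1 lane ended those in Sst-like (−0.37), Vip-like (−0.49), SPN-like (−0.48), microglia-like (−0.43) and mural-like nuclei (−0.49). It also ended the Kcnip1 call in astrocyte-like nuclei (−0.22). With RNA of other cells taken out Kcnip2 was below 0 in 14 of 16 types with a value (6 at or below −0.5), Kcnip3 in 12 of 15 (2) and Kcnip1 in 10 of 10 (5). Several Kcnip2 calls rested on few UMIs, with 33 for saline and 16 for risperidone in NP-like, 44 and 43 in mural-like and 29 and 20 in fibroblast-like nuclei. The counting intervals of the mural-like (−1.15 to 0.13) and fibroblast-like ratios (−1.51 to 0.26) included 0. Leaving out 1 lane ended the Kcnip2 call in Lamp5-like (−0.45 without saline lane 2), mural-like (−0.32 without saline lane 1), fibroblast-like (−0.42 without risperidone lane 2), Sst-like (−0.41 without risperidone lane 1) and other glutamatergic nuclei (−0.48 without saline lane 1). Kcnip1 calls lay where it was scarce, and in Vip-like and Sst-like nuclei, which held the most, its log2 ratios were −0.10 and −0.19. Kcnip4 was called in astrocyte-like nuclei (−0.73) and in no other type. Other cells would supply 97.2% of that level in saline and 112% in risperidone, and the ratio was 0.34 in nuclei of 4000 to 8000 UMIs and 0.08 at the finer clustering. As a sum per kilobase, KChIP over Kv4 on the log2 scale went from 1.31 to 1.41 in glutamatergic nuclei.

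By single nuclei thinned to 2000 UMIs, Kcnd3 was detected in 61.2% of saline and 46.0% of risperidone glutamatergic nuclei, 33.1% and 19.5% of PV-like and 63.9% and 53.6% of Sst-like nuclei. Microglia-like nuclei gave 59.3% and 42.9%, above the PV-like shares and near those of the other classes. The estimated share of other-cell RNA was 92.5% and 92.1% in microglia-like but 34.7% and 17.0% in PV-like nuclei. The microglia-like values are thus not the background of PV-like nuclei. Detection did not separate a type's own Kcnd3 from RNA of other cells. Kcnd2 was detected in 96.7% and 97.8% of glutamatergic nuclei but also in 94.96% and 95.5% of microglia-like nuclei, so its detection says little about a type. The thinning left out 3909 saline and 263 risperidone glutamatergic nuclei below 2000 UMIs.

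The lanes also differed in depth and in the share of nuclei called by sex. In glutamatergic nuclei of 4000 to 8000 UMIs only, Kcnd3 had a log2 ratio of −0.88, in nuclei called female −1.04 and in nuclei called male −0.51. In PV-like nuclei these values were −0.88, −1.14 and −0.81, and in Sst-like nuclei −0.38, −0.68 and −0.32. Kcnd3 was lower in each of these 9 fits, but inside the limit in Sst-like nuclei of 4000 to 8000 UMIs and in those called male. For Kcnd2 the value farthest from 0 was 0.26, in Sst-like nuclei called female, and in PV-like nuclei the sets by sex had opposite signs (−0.20 female, 0.12 male).

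**Figure D5:**
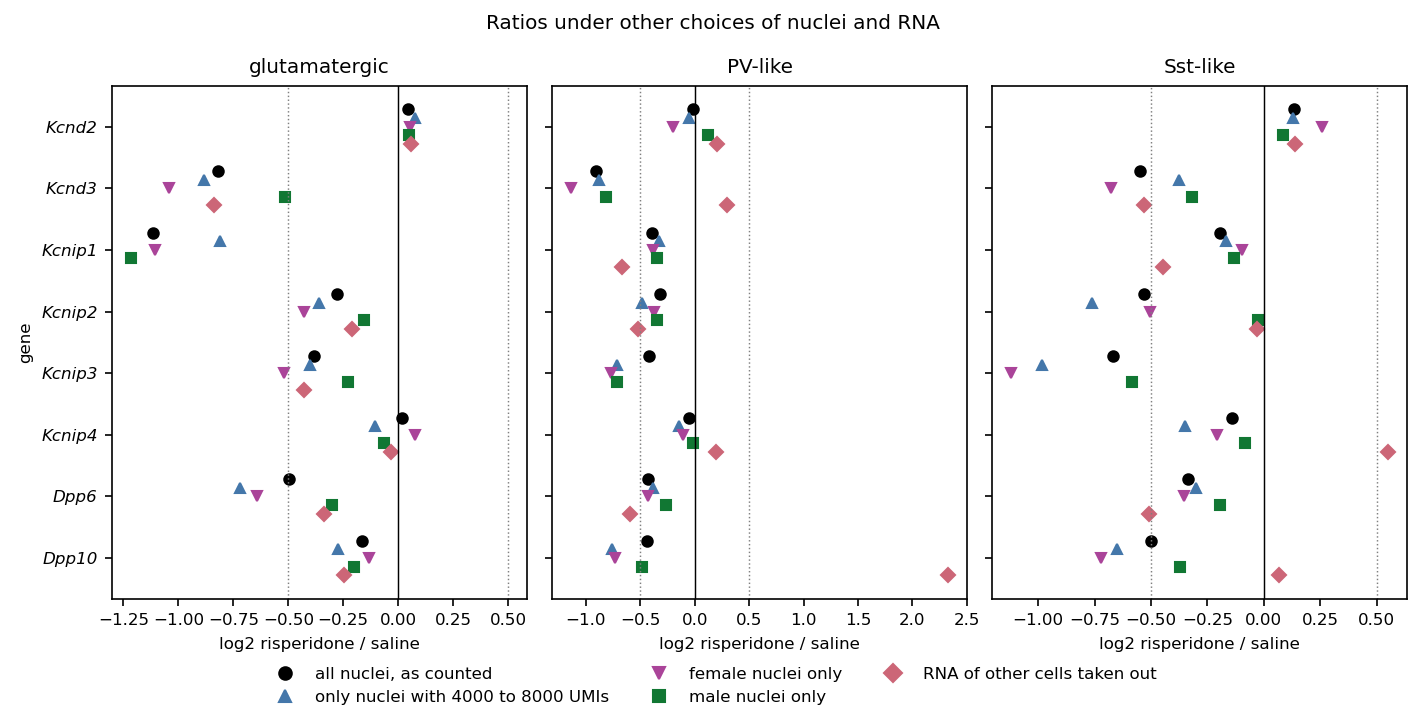
Log2 ratio of risperidone to saline of the 8 genes in glutamatergic, PV-like and Sst-like nuclei, with all nuclei (black circles), nuclei of 4000 to 8000 UMIs, nuclei called female or male, and RNA of other cells taken out (red diamonds). Kcnd3 in PV-like nuclei moves from −0.91 to 0.30 and Dpp10 there from −0.44 to 2.33 when RNA of other cells is taken out.

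Annotated transcripts share positions with the members. Gm43847 lies within a Kcnd3 intron on the same strand, so its UMIs cannot be told apart from Kcnd3 pre-mRNA. It stood at 23.4 and 22.5 CPM with saline and 13.5 and 13.9 with risperidone, a log2 ratio of −0.74 over whole lanes. Kcnd3os, on the opposite strand, was at 5.91 and 5.79 against 5.09 and 5.04 CPM (−0.21), a smaller difference than its sense partner. On the strand opposite Kcnip4, 5730480H06Rik was at 13.8 and 14.2 against 16.9 and 17.2 CPM (0.29).

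Other genes tied to A-type current were counted as lists. Among further A-type channel genes, Kcnab2, which encodes a Kv beta subunit, was called lower in glutamatergic nuclei (−0.61), and none of the 5 measured in PV-like nuclei was called. For these lists the shares of all genes called lower were 6.96%, 7.42% and 7.91% in glutamatergic, PV-like and Sst-like nuclei, as above. Of 9 neuronal calcium sensors related to KChIPs, Hpcal1 was called lower in glutamatergic nuclei (−1.10, 6 measured), none in PV-like (3 measured) and Ncs1 in Sst-like nuclei (−0.59, 4 measured). None of the prolyl peptidases related to the DPP genes was called, with 5, 4 and 4 of 7 measured.

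Of 16 kinases, anchors and partners of Kv4, 14 were measured in glutamatergic nuclei. The actin linker Flna (−0.54) and the T-type calcium channel genes Cacna1h (−0.54) and Cacna1i (−0.54) were called lower, and the scaffold gene Dlg1 higher (0.63). In PV-like nuclei 4 of 13 were called lower: the kinase gene Camk2b (−0.55), the scaffold gene Dlg4 (−0.55), Cacna1g (−0.86) and Cacna1i (−0.63). In Sst-like nuclei Camk2b (−0.64), Dlg4 (−0.61), Flna (−0.51) and Cacna1i (−0.50) were called lower among 13. Cacna1i was the call common to all 3 classes, in which 6.96%, 7.42% and 7.91% of all genes were called lower.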

How the data were processed

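Single-nucleus RNA-seq was analysed from 2 lanes of 1 saline pool and 2 lanes of 1 risperidone pool. The values are UMI counts per gene and nucleus that the authors deposited; per the labels and the study's methods they came from 10x GEM-X v4 libraries processed with Cell Ranger 8.0.1 against mm10 (GRCm38) with intronic reads included, which favours long genes. Nuclei with under 500 genes, over 5% mitochondrial UMIs or doublet-like profiles (9.38% to 12.0% of each lane, scored against simulated doublets) were left out.

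Normalised counts of 2000 variable genes were reduced to 30 components and clustered (Louvain, resolution 0.5, 20 neighbours; igraph 0.11.9, scikit-learn 1.9.0). Clusters were named "-like" where at least 3 markers of a list were raised, and the thresholds were set after marker levels had been seen; 12.1% to 12.6% of nuclei per lane stayed unnamed and were kept out of the types. "Other glutamatergic" holds 12958 nuclei of clusters that met no layer type and whose mix differed between the pools. UMIs were summed per type and lane, divided by the type's total (CPM) and scaled by TMM (edgeR 4.0.16). DESeq2 1.42.0 size factors, plain CPM, other depth windows, doublets kept, resolution 1.0, equal cluster weights, nuclei by sex call, other minimums and limits, and each lane left out were the alternatives. Intervals are 95% and cover counting error only. RNA of other cells was estimated as the median over oligodendrocyte markers (glutamatergic markers for non-neuronal types) of the level in the type over that in the lane. These markers were chosen after their values had been seen. A single share per type and lane was applied to every gene. It exceeded the measured level of some, as for saline Kcnip3 in PV-like (140%) and Sst-like nuclei (162%), so it may be too high for other genes too.

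With 1 pool per condition no p-value was computed. The 8 genes and the pathway lists were chosen with earlier results of these data known. The genes named are the 8 members, called genes of the lists, the 3 genes nearest in pattern to each member, and overlapping genes with at least 1000 UMIs on the other strand; Gm43847 on the same strand is the nearest gene to Kcnd3. In data simulated on the real genes, 50 genes were lowered by 0.75 on the log2 scale. Of these, 100% were called in glutamatergic (7211 genes), 98% in PV-like (7454) and 94% in Sst-like nuclei (7331). Of unchanged genes, 0%, 0.207% and 0.561% were called. With 1 pool per condition, these shares are not error rates for calls between the pools. How often differences of mice, depth or free RNA lead to a call was not tested. The shares are also not read for members near the minimum of 10 CPM. Part of the result for the list of further A-type channel genes is not reported here. Promoter windows came from RefSeq (GRCm38.p6), and all 8 members matched. Protein sequences were not used here.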

Additional observations from a re-analysis of the deposited data

Results flagged for a closer look

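Nuclei were split by their Xist and Y-linked UMIs into those called female and those called male. For 2 genes both lanes moved in opposite directions in the 2 sets. Kcnd2 in PV-like nuclei was at 1919 and 1733 CPM in saline and 1621 and 1564 in risperidone in nuclei called female, a log2 ratio of −0.20. In nuclei called male it was at 1583 and 1512 against 1654 and 1692 CPM, a log2 ratio of 0.12. Kcnip4 in glutamatergic nuclei was at 12857 and 13380 against 13668 and 13996 CPM in nuclei called female (0.075), and at 13742 and 14227 against 13196 and 13539 CPM in nuclei called male (−0.066). Neither difference between the sexes was tested, since each pool holds all its mice of a sex together.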

How the results depend on the processing

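No paired analysis was possible because each condition is 1 pool and no result comes from a test. Members called lower in glutamatergic nuclei (2) numbered 3, with Dpp6 added, under DESeq2 size factors, resolution 1.0, doublet-like nuclei kept, at least 2000 UMIs, 4000 to 8000 UMIs and without saline lane 2 or risperidone lane 2 (2 to 3 with a lane left out), 4 in nuclei called female, 1 with RNA of other cells taken out or a minimum of 50 CPM, 5 at a limit of 0.25 and 1 at a limit of 1. In PV-like nuclei (1) they numbered 3 at 4000 to 8000 UMIs, 3 in nuclei called female, 2 in nuclei called male, 1 to 3 with a lane left out, 6 at 0.25 and 0 at 1; with RNA of other cells taken out 3 were lower and 1 higher. In Sst-like nuclei (3) they numbered 1 with plain CPM, with doublet-like nuclei kept, in nuclei called male and at a minimum of 50 CPM, 4 in nuclei called female, 2 to 4 with a lane left out, 5 at 0.25 and 0 at 1; with RNA of other cells taken out 2 were lower and 1 higher. With that RNA taken out, log2 Kcnd2 over Kcnd3 (risperidone minus saline) in PV-like nuclei reversed from 0.89 to −0.092, and log2 Dpp6 over Dpp10 went from −0.33 to −0.094 in glutamatergic, from 0.01 to −2.93 in PV-like (−0.11 to 0.14 with a lane left out: −0.11 without saline lane 1 and −0.08 without risperidone lane 2) and from 0.16 to −0.57 in Sst-like nuclei. The Kcnip4 percent of KChIP over both conditions was 68.8, 50.9 and 52.1 in glutamatergic, PV-like and Sst-like nuclei per kilobase of span, 97.8, 91.0 and 83.4 in plain UMIs, 97.8, 93.8 and 89.1 per kilobase of exons, and 44.7 and 37.9 in the latter 2 types with RNA of other cells taken out.

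Among single log2 ratios that had passed the call rule, these reversed; ratios without a call that turned are in the counts at the end. With RNA of other cells taken out they were 0.66 for Dpp6 in L6 CT-like, 1.98 for Kcnd3 and 0.41 for Dpp10 in NP-like, 0.30 for Kcnd3 in PV-like, 0.77 for Kcnip3 in Vip-like and 0.47 for Kcnd3 in microglia-like nuclei. Astrocyte-like nuclei gave 0.040 for Kcnd3 in nuclei called male, 0.12, 0.34 and 0.14 for Kcnip1, Kcnip4 and Dpp6 at 4000 to 8000 UMIs, and 0.31 and 0.077 for Kcnip1 and Kcnip4 at resolution 1.0. Kcnip2 was at 0.17 in mural-like nuclei called male and at 0.17 in fibroblast-like nuclei of at least 2000 UMIs, and Dpp10 at 0.062 in fibroblast-like nuclei of 4000 to 8000 UMIs. Of 173 ratios, 147 (nuclei called male) to 172 (without saline lane 2) kept their direction under each of the other settings that gave all 173; equal weights gave 24 values (21 kept), resolution 1.0 gave 165 (155 kept), and RNA of other cells taken out gave 132 (100 kept). The cause of these shifts was not tested.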

Other observations

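In saline glutamatergic nuclei Kcnd3 was higher in nuclei called female, at 660 and 662 CPM, than in nuclei called male, at 510 and 493. In risperidone it was lower in nuclei called female, at 314 and 326 CPM, than in nuclei called male, at 345 and 355. The order of the sets was thus opposite in the 2 pools, with no overlap of lanes within either. Each set was scaled by its own TMM factors, so the levels of the 2 sets are not on a common scale. Between 37.3% and 39.2% of saline nuclei and between 50.0% and 50.7% of risperidone nuclei were called female, and 18.5% to 20.5% were called male. The remaining nuclei had no call, so these sets are not all female or male nuclei, and the difference was not tested. Any Xist UMI without a Y-linked UMI gave a female call, so free Xist RNA could place male nuclei in that set. How often this happened was not tested.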
